A study of Mus musculus with 2 samples.

Results

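The miR-23/27/24 microRNAs (miRNAs) are made from 6 hairpin genes that sit in 2 paralogous clusters: Mir23a, Mir27a and Mir24-2 on chromosome 8, and Mir23b, Mir27b and Mir24-1 on chromosome 13. The members were chosen by name and chromosome, with earlier results of these data known. They are the 6 of 2202 annotated miRNA genes that the GENCODE M21 annotation places in these clusters, and the rule used no values. They were measured by microRNA sequencing in 2 libraries that form 1 group. Both are labelled as left cerebral cortex at age 4 days, from males of strain B6CASTF1/J, in which C57BL/6J and CAST/EiJ are crossed. RNA under 30 nt was selected from total RNA, and no mutation or treatment is named for either library. The libraries are called replicate 1 and replicate 2 below, as their labels number them. Their labels give each male its own number but share a donor identifier. The labels do not settle whether the libraries come from separate animals, and what sets them apart was not tested.

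A miRNA gene is transcribed as a hairpin precursor, which is cut into a short duplex with a 5p and a 3p arm, and the arm loaded into Argonaute represses mRNAs that pair with its seed (bases 2 to 8). The clusters arose by duplication in vertebrates, so that each hairpin on chromosome 8 has a paralog on chromosome 13. miR-23, miR-27 and miR-24 are known from endothelial cells and blood vessel growth, miR-27 also from fat cell differentiation, and miR-23a and miR-27b in the brain from work on neuronal cell death and, for miR-23a, on myelination. Hairpins of a cluster can be cut from a shared primary transcript, and their mature miRNAs can then accumulate to different levels.

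The mature arms decide which copy a read can be traced to, and they are shown for that reason. All 6 hairpins matched RefSeq entries by symbol (GRCm38.p6), with 11 mature arms between them, and no entry for miR-23b-3p was used. Seeds are in capitals, each sequence runs 5′ to 3′, and the arms are given with the chromosome 8 copy first.
miR-23a-3p: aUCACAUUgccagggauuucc
miR-23a-5p: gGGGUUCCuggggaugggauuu
miR-23b-5p: gGGUUCCUggcaugcugauuu
miR-27a-3p: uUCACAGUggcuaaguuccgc
miR-27b-3p: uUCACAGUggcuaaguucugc
miR-27a-5p: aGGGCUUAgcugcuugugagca
miR-27b-5p: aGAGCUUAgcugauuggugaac
miR-24-3p (both copies): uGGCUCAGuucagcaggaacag
miR-24-2-5p: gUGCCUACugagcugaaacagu
miR-24-1-5p: gUGCCUACugagcugauaucagu
miR-27a-3p and miR-27b-3p share their seed and differ at a single base, C19U, counted from 1 at the 5′ end with the miR-27a-3p base first. The 5p arms of the Mir27 hairpins differ at 8 positions. The whole 22 bases of miR-24-3p occur in both Mir24 hairpins. The 5p arms of the Mir24 hairpins share a seed and first differ at base 17. The first 18 bases of miR-23a-3p also occur in the Mir23b hairpin, and the first 18 bases of each miR-27 3p arm occur in the other Mir27 hairpin. A read of such an arm therefore needs at least 19 bases to be told from the paralog among the 1005 hairpins of the sequence table. The longest runs common to the paralogous hairpins, which mark where reads cannot be told apart, were 20 bases for the Mir23 pair, 20 for the Mir27 pair and 28 for the Mir24 pair.
Mir23 pair: aaaucacauugccagggauu
Mir27 pair: uguucacaguggcuaaguuc
Mir24 pair: cacuggcucaguucagcaggaacaggag

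The clusters are laid out alike but with different spacing and surroundings (mm10, plus strand). Mir23a (ENSMUSG00000065611.1) lies at 84208518 to 84208592 of chromosome 8, Mir27a (ENSMUSG00000065444.1) at 84208672 to 84208758 and Mir24-2 (ENSMUSG00000065541.1) at 84208815 to 84208921. Mir23a and Mir27a overlap no other annotated gene, so they are intergenic, and Mir24-2 shares 2 bases with the exon of the long noncoding RNA Gm26532. Mir23b (ENSMUSG00000065599.2) lies at 63300484 to 63300557 of chromosome 13, Mir27b (ENSMUSG00000065475.2) at 63300712 to 63300784 and Mir24-1 (ENSMUSG00000105904.1) at 63301208 to 63301275. All 3 lie within the protein-coding gene 2010111I01Rik on the same strand and within an intron of Fancc, a Fanconi anaemia gene, on the opposite strand. Mir23b falls in introns of 9 of 9 transcripts of 2010111I01Rik that span it. Mir27b falls in an untranslated exon of 1 of 9, a nonsense-mediated decay transcript, and Mir24-1 overlaps an exon of 4 of 11. Each Mir24 gene overlaps a further miRNA gene on the minus strand, Mir3074-2 on chromosome 8 and Mir3074-1 on chromosome 13.

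**Figure D1:**
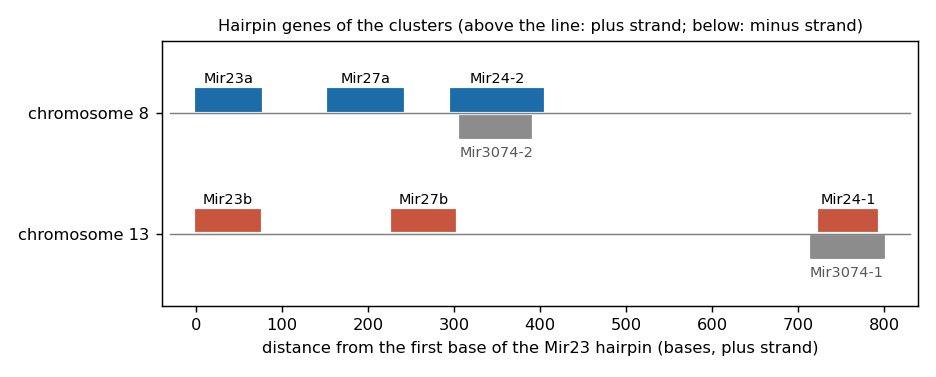
Positions of the hairpin genes of both clusters, drawn to scale as the distance in bases from the first base of the Mir23 hairpin, with plus-strand genes above each line and minus-strand genes below it. Mir23a and Mir27a are 79 bases apart and Mir27a and Mir24-2 56, against 154 and 423 bases for the matching genes on chromosome 13, and each Mir24 hairpin lies opposite a Mir3074 hairpin.

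The libraries differ in ways that touch every comparison between them. Own-strand miRNA counts totalled 2999032 in replicate 1 and 3577964 in replicate 2, and reads placed at several sites, which no gene received, were 46.1% and 39.8% of all reads. Levels are given as CPM, the own-strand counts scaled to a total of 1000000 per library, on which 3 counts equal 1.00 and 0.838 CPM. Neuron-enriched miRNAs, of which 0 of 14 genes in replicate 1 and 4 of 14 in replicate 2 (Mir9-2 and the 3 Mir124a copies) were at 0, held 4.27% of counts in replicate 1 and 0.132% in replicate 2. Muscle miRNAs, of which 6 of 9 genes in replicate 1 (Mir1a-1, Mir1a-2, Mir133a-1, Mir133a-2, Mir208a and Mir208b) and 1 of 9 in replicate 2 (Mir133a-2) were at 0, held 0.00730% and 15.7%. The library labelled replicate 2 thus goes against its cortex label in these markers, and values are given for each library on its own before any mean. Any reads of the listed genes that fit several sites were not counted, so a count of 0 does not show absence. Intervals below are exact Clopper-Pearson 95% binomial intervals. They cover counting error within a library only, and not variation between animals or preparations. The reads carry no molecular identifiers and may repeat a molecule, in which case the intervals are too narrow.

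The 6 hairpins together took 1.65% of miRNA counts in replicate 1 (interval 1.64 to 1.67) and 5.09% in replicate 2 (5.07 to 5.11). Nearly all of these counts came from Mir23a and Mir23b. Mir23a had 17170 counts in replicate 1 and 96042 in replicate 2, or 5725 and 26843 CPM. It ranked 39 among all miRNA genes in replicate 1 and 9 in replicate 2. Mir23b had 30269 and 73783 counts, or 10093 and 20622 CPM, and ranked 21 and 15. The copies thus changed places: Mir23b was the more abundant in replicate 1 and Mir23a in replicate 2.

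The Mir27 hairpins were far less abundant than the Mir23 hairpin beside them. Mir27a had 131 and 1423 counts, or 43.7 and 398 CPM, and ranked 248 and 126. Mir27b had 1884 and 10403 counts, or 628 and 2908 CPM, and ranked 114 and 52. Mir27b was the higher of the pair in both libraries, and its lowest value exceeded the highest of Mir27a. Reads that end within the first 18 bases of miR-23a-3p or of a miR-27 3p arm fit both paralogs and go to no gene. Their part in the Mir23 and Mir27 counts, shares and ratios was not tested.

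The Mir24 genes had the lowest counts of the clusters in both libraries, beside a mature sequence that both copies carry whole. They ranked 335 (Mir24-2) and 297 (Mir24-1) in replicate 1, among 693 genes with a count. In replicate 2 they ranked 163 and 246, among 604. Mir24-2 had 24 and 483 counts, or 8.0 CPM (interval 5.13 to 11.9) and 135 CPM (123 to 148). Mir24-1 had 48 and 51 counts, or 16.0 CPM (11.8 to 21.2) and 14.3 CPM (10.6 to 18.7). Mir24-1 was the only member whose intervals in the libraries overlapped. Reads of miR-24-3p fit both hairpins, and in these tables a read placed at several sites is given to no gene, so the Mir24 counts give no level of miR-24-3p and cannot be set beside those of Mir23 and Mir27 as levels of the mature miRNA. The part of the reads at several sites that came from miR-24-3p was not tested.

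**Figure D2:**
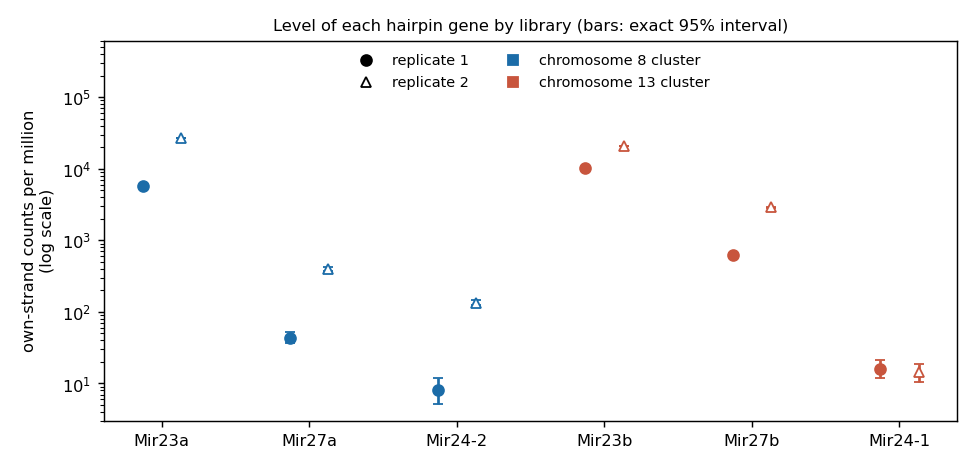
Own-strand level (CPM) of each hairpin gene on a log scale, with circles for replicate 1, triangles for replicate 2 and bars for the exact 95% interval. Mir23a and Mir23b lie between 5725 and 26843 CPM in both libraries, Mir27a, Mir27b and Mir24-2 are higher in replicate 2, and Mir24-1 is at 16.0 and 14.3 CPM.

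Over both libraries, Mir23a averaged 16284 ± 14932 CPM and Mir23b 15357 ± 7445 CPM (SD, n = 2). Mir27a averaged 221 ± 250.3 CPM and Mir27b 1768 ± 1612 CPM. Mir24-2 averaged 71.5 ± 89.8 CPM and Mir24-1 15.1 ± 1.24 CPM. These means join libraries that differ widely in neuron-enriched and muscle miRNAs, so they need not describe a single tissue. The SD was close to or above the mean for Mir23a, Mir27a, Mir27b and Mir24-2, so the means are ordered loosely. Going down that order, the lowest value of Mir23b was above the highest of Mir27b, and the lowest of Mir27b above the highest of Mir27a. The values of Mir23a and Mir23b overlapped, as did those of Mir27a and Mir24-2, and those of Mir24-2 and Mir24-1. No test over libraries was made, because a permutation of 2 libraries cannot give a p-value below 0.5.

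Within a library the balance between the clusters does not depend on how the libraries are scaled. The chromosome 8 cluster held 35.0% of the counts of both clusters in replicate 1 (17325 of 49526, interval 34.6 to 35.4) and 53.8% in replicate 2 (97948 of 182185, interval 53.5 to 54.0), a mean of 44.4% ± 13.3 (SD, n = 2). The cluster with more counts was therefore that of chromosome 13 in replicate 1 and that of chromosome 8 in replicate 2. Reads of the mature arm that both Mir24 hairpins carry whole go to no gene. The sums leave these reads out, so the sums do not rank the clusters by all of their mature miRNAs. Mir23a held 36.2% of the Mir23 pair in replicate 1 (35.8 to 36.6) and 56.6% in replicate 2 (56.3 to 56.8), a mean of 46.4% ± 14.4. The Mir23 pair sets the value for the clusters, since it held 47439 and 169825 of the counts.

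Mir27a was the minor copy of its pair in both libraries. It held 6.50% of the Mir27 pair in replicate 1 (131 of 2015, interval 5.46 to 7.67) and 12.0% in replicate 2 (1423 of 11826, interval 11.5 to 12.6), a mean of 9.27% ± 3.91. Mir24-2 held 33.3% of the Mir24 pair in replicate 1 (24 of 72, interval 22.7 to 45.4) and 90.4% in replicate 2 (483 of 534, interval 87.6 to 92.8). In all 3 pairs the chromosome 8 copy had the smaller share in replicate 1, and the intervals of the libraries did not overlap in any pair. The odds of the chromosome 8 copy were 2.29 times as high in replicate 2 for the Mir23 pair, 1.97 times for the Mir27 pair and 18.9 times for the Mir24 pair.

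**Figure D3:**
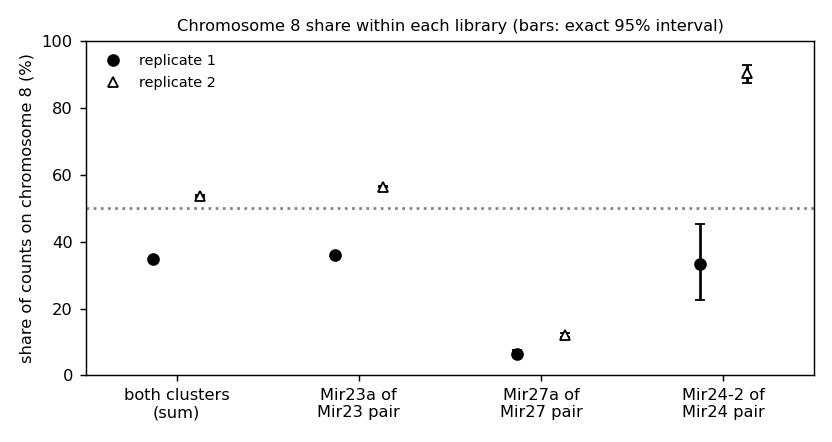
Percent of counts on the chromosome 8 copy within each library, for the sum of both clusters and for each paralogous pair, with circles for replicate 1, triangles for replicate 2 and bars for the exact 95% interval. The Mir23 pair lies at 36.2% and 56.6%, on either side of the dotted line at equal shares, while Mir27a holds 6.50% and 12.0%.

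The hairpins of a cluster were very unequal, and the Mir23 hairpin held the larger share on chromosome 8. Mir23a made up 99.1% of the chromosome 8 cluster's counts in replicate 1 and 98.1% in replicate 2, Mir27a 0.756% and 1.45%, and Mir24-2 0.139% and 0.493%. Mir23b made up 94.0% and 87.6% of the chromosome 13 cluster's counts, Mir27b 5.85% and 12.3%, and Mir24-1 0.149% and 0.0605%. Small RNA reads cover a mature arm and not the length of the gene, so counts are compared here, and counts per base of hairpin are given beside them.

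Mir23a had 131 times the counts of Mir27a in replicate 1 (interval 110.4 to 157) and 67.5 times in replicate 2 (64.0 to 71.2), or 152 and 78.3 times per base of hairpin. Mir23b had 16.1 times the counts of Mir27b in replicate 1 (15.3 to 16.8) and 7.09 times in replicate 2 (6.95 to 7.24), or 15.8 and 7.00 times per base. The ratio on chromosome 8 was thus 8.16 times that on chromosome 13 in replicate 1 and 9.52 times in replicate 2, so this difference between the clusters was of like size in both libraries. The excess of Mir23 over Mir27 was itself larger in replicate 1, by 1.94 times on chromosome 8 and by 2.27 times on chromosome 13. Mir27a had 5.46 and 2.95 times the counts of Mir24-2, while Mir27b had 39.3 and 204 times the counts of Mir24-1. Reads of miR-24-3p fit both Mir24 hairpins and go to no gene, so these last ratios do not compare levels of the mature miRNAs.

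Neighbouring hairpins elsewhere in the genome give the scale of these gaps. Among tested genes (at least 10 counts summed over the libraries), 120 other pairs lay next to each other on a strand within 10000 bases. The gap in level of Mir23a and Mir27a, on the log2 scale with 1 CPM added, was 7.00 in replicate 1 and 6.07 in replicate 2, and 8 and 18 of the 120 other pairs had a larger gap. The gap of Mir23b and Mir27b was 4.00 and 2.83, and 45 and 56 of the 120 were larger. The median gap of the other pairs was 2.62 in replicate 1 and 2.67 in replicate 2. These pairs include neighbours that are not cut from a shared transcript and copies that lose reads to other sites.

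**Figure D4:**
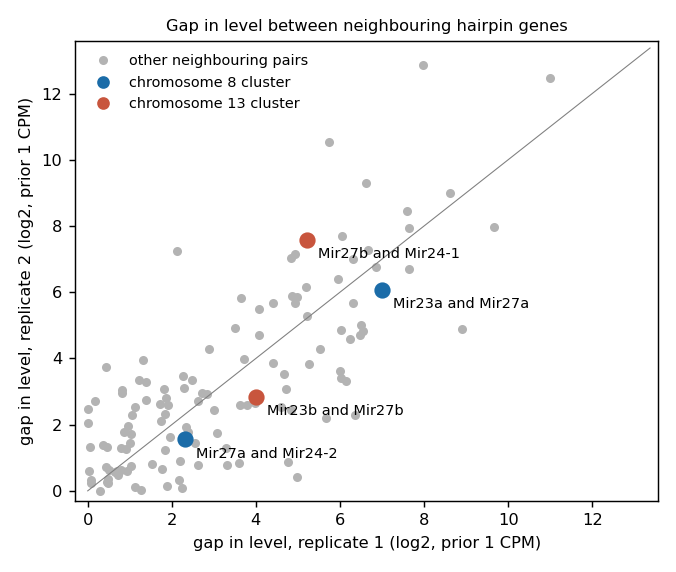
Absolute difference in log2 level (1 CPM added) between neighbouring tested hairpin genes in replicate 1 (horizontal axis) and replicate 2 (vertical axis), with grey points for 120 other pairs within 10000 bases and a line of equality. Mir23a and Mir27a sit at 7.00 and 6.07, among the wider gaps, and Mir23b and Mir27b at 4.00 and 2.83.

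Between the libraries, 5 of the 6 members were at least 2-fold lower in replicate 1 with total counts as the scale. All 6 members had at least 10 counts summed. Among the 463 genes so tested, 21.4% were at least 2-fold lower in replicate 1 (99 genes) and 55.1% at least 2-fold higher (255 genes), where 1 CPM was added to each value. With TMM factors, which give replicate 1 a lower value by 1.40 on the log2 scale for an abundant gene, 6 of 6 members were lower, beside 33.7% of all genes (156), and 34.8% (161) were higher. The median log2 ratio, replicate 1 over replicate 2, was -2.22 over the members and 1.35 over all tested genes with total counts, and -3.62 and 0.26 with TMM factors. The libraries have no replicate of their own, so these ratios compare the libraries and carry no p-value.

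Mir24-2 had the widest ratio, 16.9-fold lower in replicate 1 (interval 11.2 to 26.6), though on 24 counts there. Mir27a was 9.10-fold lower (7.61 to 11.0), Mir23a 4.69-fold lower (4.61 to 4.77) and Mir27b 4.63-fold lower (4.41 to 4.86). Mir23b was 2.04-fold lower (2.02 to 2.07), close to the 2-fold line. Mir24-1 was 1.12-fold higher in replicate 1 with total counts (log2 0.17, interval -0.43 to 0.76) and 2.36-fold lower with TMM factors, so its direction rests on the scale. Ranked from lowest to highest ratio among the 463 genes (total counts), the members stood at percentiles 5.41 (Mir24-2), 7.58 (Mir27a), 12.1 (Mir23a), 12.6 (Mir27b), 20.8 (Mir23b) and 31.0 (Mir24-1).

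Summed, the chromosome 8 cluster was 4.74-fold lower in replicate 1 (log2 -2.24, interval -2.27 to -2.22), with 5777 CPM in replicate 1 against 27375 CPM in replicate 2. The chromosome 13 cluster was 2.19-fold lower (log2 -1.13, interval -1.15 to -1.11), with 10737 CPM in replicate 1 against 23543 CPM in replicate 2. Both sums leave out reads that fit both Mir24 hairpins. The log2 ratio of Mir23a lay 1.20 below that of Mir23b and the log2 ratio of Mir27a 0.98 below that of Mir27b, and these differences do not depend on the scale. Within each cluster, the ratios of Mir23a and Mir27a differed by 0.93 on the log2 scale and those of Mir23b and Mir27b by 1.18. The median over the 120 other neighbouring pairs was 1.28. The Mir23 and Mir27 paralogs were thus about as far apart in their ratios as the Mir23 and Mir27 neighbours within a cluster. The Mir24 genes, on low counts, spread more widely. The ratio of Mir24-2 lay 4.24 below that of Mir24-1. Mir27a and Mir24-2 differed by 0.76, and Mir27b and Mir24-1 by 2.37.

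The miRNAs of other cell types moved between the libraries in both directions. Of the vascular and angiogenic list, 7 of 9 genes were tested, and 2 were at least 2-fold lower and 2 at least 2-fold higher in replicate 1 (4 and 2 with TMM factors), with a median log2 ratio of -0.15. The list held 2.80% of counts in replicate 1 and 5.38% in replicate 2, and Mir126b and Mir145b were at 0 in replicate 1, Mir145b also in replicate 2. Mir143, abundant in smooth muscle, had 14193 and 84860 counts (log2 -2.33). Mir145a, which is transcribed with Mir143, had 1126 and 1491 counts (log2 -0.15). Endothelial Mir126a had 35984 and 81797 counts (log2 -0.93). Hypoxia-induced Mir210 had 187 and 562 counts (log2 -1.32), and Mir130a had 26599 and 23220 (log2 0.45). Mir221 went the other way, with 4999 and 312 counts (log2 4.24). Mir222 had 984 and 79 counts (log2 3.83). The genes of the list thus spread from ratios near that of the chromosome 8 cluster (Mir143) to ratios far above both clusters (Mir221 and Mir222).

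All 3 red blood cell genes were at least 2-fold lower in replicate 1, with a median log2 ratio of -1.54 and 0.00453% and 0.0153% of counts. All 7 tested muscle genes were lower, with a median of -6.31. Of 10 tested neuron-enriched genes 10 were higher (9 with TMM factors), with a median of 4.94. Of 4 leukocyte and microglia genes 1 was lower and 1 higher (3 and 1 with TMM factors), with 0.0637% and 0.0520% of counts. Of 3 oligodendrocyte genes 0 were lower and 2 higher (1 and 1 with TMM factors), with 0.0615% and 0.0454%. These lists moved in the same libraries as the members, and their part in the members' ratios was not tested. In bulk tissue, fewer cells of a type and less of a miRNA per cell cannot be told apart.

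**Figure D5:**
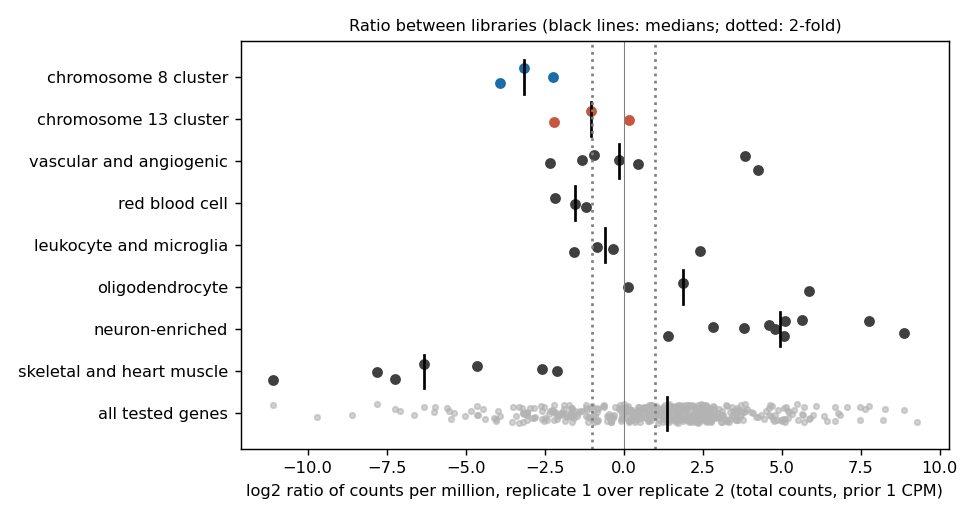
Log2 ratio of CPM, replicate 1 over replicate 2 (total counts, 1 CPM added), for the members, the genes of each list with at least 10 counts summed, and all 463 tested genes, with black lines for medians and dotted lines at 2-fold. The members lie between -3.92 and 0.16, left of the median of all genes at 1.35. Their median of -2.22 lies between those of the muscle list (-6.31) and the neuron-enriched list (4.94). The values of 4 members (Mir23a, Mir27a, Mir24-2 and Mir27b) fall within the range of the muscle genes. The upper end of that range rests on Mir133a-1 (0 and 18 counts, log2 -2.59) and Mir208a (0 and 12 counts, log2 -2.12), whose ratios the added 1 CPM limits. The other tested muscle genes lie at -4.63 or lower, below all members.

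Among 182 other genes with at least 1000 counts summed, the ratios nearest to that of the chromosome 8 cluster were those of Mir665 (log2 -2.27, 662 and 3832 counts), Mir143 (-2.33) and Mir540 (-2.37, 4072 and 25046 counts). The ratios nearest to that of the chromosome 13 cluster were those of Mir455 (-1.14, 1499 and 3933 counts), Mir300 (-1.12, 2062 and 5369 counts) and Mir376b (-1.15, 603 and 1603 counts). Mir665, Mir540, Mir300 and Mir376b lie on chromosome 12, as do many other tested genes, so no link to the members is drawn from their location. Likeness here is the difference in a single log2 ratio over 2 libraries, which was at most 0.12 for these genes.

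The minus-strand genes opposite the Mir24 hairpins differed between the clusters. Mir3074-2, opposite Mir24-2, had 0 counts in both libraries. Reads that fit both Mir3074 hairpins go to no gene, so a count of 0 sets no limit on the level of an arm they share. Mir3074-1, opposite Mir24-1, had 78 and 51 counts, beside 48 and 51 for Mir24-1 itself. In the counts made without regard to strand, all 4 genes were at 0 in both libraries, so the Mir24 values rest on the strand-specific column. The arm that the Mir3074 hairpins share is miR-3074-5p, which both carry whole and whose reads also fit both.
miR-3074-5p: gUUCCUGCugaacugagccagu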

How the data were processed

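Each library has a deposited table of raw counts for every annotated miRNA gene, in 3 columns, on mm10 with GENCODE M21, per the text deposited with them. Aligner and counter: not given in the sources used here. Columns have the STAR layout (unstranded, own-strand and opposite-strand counts), in which reads at several sites go to no gene. The own-strand column was used. Entries without a gene (unplaced 18.4% and 6.11%, several sites 46.1% and 39.8%, outside genes 5.55% and 1.47% of reads in replicates 1 and 2) stayed out of library sizes.

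All 2202 identifiers matched GENCODE M21. CPM uses total own-strand counts. Log2 ratios are replicate 1 over replicate 2 with 1 CPM added for genes, and with none for folds and intervals of members and sums. Genes needed 10 counts summed. A gene was called when it differed at least 2-fold, and no test was run, since neither library has a replicate of its own. TMM factors (1.63 and 0.615) came from edgeR. The edgeR quasi-likelihood test was not run, for the same reason. Ratios with total counts and with TMM factors were tested on simulated data with known folds, as many up as down. The libraries themselves differ unevenly, a setting that the simulation does not cover. Ratios with DESeq2 size factors were not tested on it.

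The members, lists and call rule were chosen with earlier results of these data known. Named genes are the members, miRNA genes overlapping them, genes of the lists with at least 100 counts summed (those of the vascular list singly, the others by counts and medians), and the 3 genes nearest to each cluster in ratio. List genes at 0 are named besides. Alternatives were TMM and DESeq2 size factors, unstranded counts, other filters and priors, totals without Mir206, sums without the Mir24 genes and each library alone. Counts per base, a 4-fold minimum and stricter neighbour sets were chosen after seeing the data. Ratios, intervals and figures were made in Python 3.11.15 (scipy 1.17.1, numpy 2.4.6, matplotlib 3.10.9, pandas 2.3.3), and scale factors in R 4.3.3 with DESeq2 1.42.0 and edgeR 4.0.16.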

Additional observations from a re-analysis of the deposited data

Results flagged for a closer look

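Reads on the strand opposite to a member lay outside the main measurement. At Mir24-1 they numbered 78 in replicate 1 and 51 in replicate 2, more than the limit of 3 counts per library, and the same numbers were counted for Mir3074-1, the annotated gene on that strand. At Mir24-2, which also has an annotated miRNA gene on the other strand, they numbered 0 and 0.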

How the results depend on the processing

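The shares of the chromosome 8 copies moved by less than their SD over the libraries with unstranded counts, and the clusters' share also without the Mir24 genes, with members of at least 100 counts and per base of hairpin. With 2 libraries, leaving a library out cannot move a mean by more than the SD and says nothing on stability. Each library alone gave 35.0% to 53.8% for the clusters, 36.2% to 56.6% for Mir23a, 6.50% to 12.0% for Mir27a and 33.3% to 90.4% for Mir24-2, and unstranded counts gave no Mir24 share. The log2 ratio between libraries of the chromosome 8 cluster was -2.24 with total counts, -3.65 with TMM factors, -3.80 with DESeq2 size factors, -2.34 unstranded and -2.49 with Mir206 out of the totals. That of the chromosome 13 cluster was -1.13, -2.54, -2.68, -1.23 and -1.38 under the same settings. Mir24-1 turned from 0.16 to -1.16 with TMM and -1.30 with DESeq2 factors; these rescale each library by a constant. Genes at least 2-fold lower in replicate 1 numbered 99, against 156 with TMM, 166 with DESeq2 factors and 64 at 4-fold. Genes at least 2-fold higher numbered 255, against 161 with TMM, 153 with DESeq2 factors and 142 with a filter of 100 counts, which tests fewer genes. With neighbours limited to 1000 bases, 6 and 11 of 72 other pairs had a wider gap in level than Mir23a and Mir27a, and with at least 100 counts for each gene 1 and 6 of 88 did. No paired analysis was possible because there is a single group. A library ratio has no value with a library left out. Low counts widen the intervals of the Mir24 genes, and the 95% interval of Mir24-1's log2 ratio, -0.43 to 0.76, spans 0.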

Other observations

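The seed of the miR-27 3p arms (UCACAGU) is also the start of miR-128-3p, a neuron-enriched miRNA made from Mir128-1 and Mir128-2, whose own seed lies a base further along and is shown in capitals.
miR-128-3p: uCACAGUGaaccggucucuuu
Mir128-1 had 53592 counts in replicate 1 and 2623 in replicate 2, and Mir128-2 had 16271 and 1379, so that both were higher in replicate 1 (log2 4.61 and 3.81 with total counts, 3.20 and 2.41 with TMM factors). Mir27a and Mir27b were lower in replicate 1 under both scales. This comparison was chosen after the values were seen, and reads of miR-128-3p fit both of its hairpins, so the Mir128 counts are uncertain.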
